A study of Mus musculus with 8 samples.

Results

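The RNA of the topoisomerases, among them the TOP2 enzymes that doxorubicin traps, and of the enzymes that clear topoisomerases stuck on DNA was examined in mouse embryonic fibroblasts. The 9 genes, Top2a, Top2b, Top1, Top1mt, Top3a, Top3b, Tdp1, Tdp2 and Mre11a, were chosen by function, with earlier results of these data known. All were found among the 30419 gene names of the count table. Enough reads to be tested were present for 8 of them, and Top3a was too low. The fibroblasts came from E13.5 embryos and were used at early passage. There were 4 groups of 2 libraries, A and B: Dino lox/lox cells (DINO mutant, DINO loxP/loxP) given 0.2 µg/mL doxorubicin for 8 h, Dino lox/lox cells given vehicle, Dino +/+ cells (WT) given the same dose and time of doxorubicin, and Dino +/+ cells given vehicle. Vehicle-treated cells are called controls. Dino is the gene of a long noncoding RNA induced by p53, and its own RNA was not analysed here. Nothing in the labels says whether A and B were separate cultures or embryos, so p-values measure the spread between these libraries, which may be technical.

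Topoisomerases relax and untangle DNA by cutting it and holding the cut end on a tyrosine of the enzyme. The type II enzymes TOP2A and TOP2B cut both strands of a duplex and pass another duplex through, and TOP2A is needed to separate sister chromosomes and is made mainly in proliferating cells. TOP1 and the mitochondrial TOP1MT cut a single strand, and TOP3A and TOP3B unlink single strands, TOP3B also those of RNA. Doxorubicin traps TOP2 on the cut DNA. The trapped enzyme is taken off by TDP2, which acts mainly on TOP2, by TDP1, which acts mainly on TOP1, or by nucleases such as MRE11.

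Library totals ran from 25482805 to 33285171 counts, and values below are counts scaled to a common library total with TMM factors (CPM), as mean ± SD of n = 2 libraries per group, or log2 fold changes ± SE from edgeR's quasi-likelihood test with Benjamini-Hochberg adjustment over the 12255 genes tested. A gene is called at an adjusted p under 0.05. A CPM is comparable between groups for the same gene only, since it was not divided by gene length. The drug acted in both genotypes: Mdm2, the p53 target that limits p53, averaged 1051 ± 20.9 CPM in mutant cells with doxorubicin and 140 ± 6.53 CPM in mutant controls, and 1158 ± 64.6 CPM in WT cells with doxorubicin and 136 ± 5.32 CPM in WT controls. Cdkn1a, the p53 target that halts the cell cycle, had log2 fold changes of 2.50 ± 0.10 in mutant and 2.46 ± 0.10 in WT cells. Its level was lower in mutant than in WT cells, at 50.8 ± 1.28 against 69.3 ± 4.48 CPM with doxorubicin. In controls it was 8.98 ± 0.526 against 12.6 ± 1.76 CPM. Both genotype differences were called (log2 -0.45 with doxorubicin and -0.49 in controls). All 12 fibroblast markers checked were detected, with summed levels from 5727 to 6301 CPM over the 8 libraries. Single markers moved: 1 rose and 4 fell with doxorubicin in mutant cells, and 4 rose and 4 fell in WT cells. Their log2 fold changes ran from -1.81 to 0.47 in mutant and -1.90 to 0.49 in WT cells. Pdgfra was at 23.8 ± 3.13 and 83.0 ± 3.10 CPM in treated and control mutant cells, and 19.6 ± 2.38 and 73.5 ± 5.15 CPM in treated and control WT cells. Of all genes tested, 28.3% rose and 25.9% fell in mutant cells, and 29.3% and 28.1% in WT cells. Macrophage markers (7 of 7 detected) summed to between 31.1 and 35.5 CPM in mutant cells with doxorubicin, 26.8 and 27.4 CPM in mutant controls, 30.9 and 31.9 CPM in WT cells with doxorubicin and 20.5 and 21.6 CPM in WT controls. Of the 6 tested, 1 rose with doxorubicin in mutant cells and 4 in WT cells, and none fell. Cd14 was at 2.60 ± 0.399 and 0.290 ± 0.0216 CPM in treated and control mutant cells. In WT cells it was at 3.88 ± 1.16 and 0.497 ± 0.335 CPM, with 7 to 25 counts in control libraries. Endothelial markers (4 of 5 detected, Tie1 without a count) summed to between 5.68 and 5.85 CPM in mutant cells with doxorubicin, 1.34 and 1.73 CPM in mutant controls, 6.63 and 11.1 CPM in WT cells with doxorubicin and 2.08 and 2.96 CPM in WT controls. Of the endothelial markers Tek alone was called with doxorubicin, at 4.49 ± 0.186 and 0.427 ± 0.124 CPM in treated and control mutant cells and 7.52 ± 2.71 and 0.977 ± 0.278 CPM in treated and control WT cells, while Kdr and Cdh5 were not called and Pecam1 had at most 2 counts in a library. Neural markers (5 of 5 detected) summed to 47.2 to 47.7 CPM in mutant cells with doxorubicin, 62.4 to 62.5 CPM in mutant controls, and at most 37.7 CPM in WT cells with doxorubicin and 37.4 CPM in WT controls. Map2 was higher in mutant than in WT cells, at 23.7 against 8.14 CPM with doxorubicin and 43.6 against 17.4 CPM in controls. Nes was lower, at 16.2 against 21.8 CPM and 9.59 against 12.6 CPM. Of the 5, 2 were called higher and 1 lower in mutant than in WT controls, and 1 higher and 1 lower with doxorubicin. Among all genes 5.92% and 7.74% were called in either direction. Skeletal muscle markers summed to at most 4.98 CPM, epithelial markers to 0.847 CPM and erythroid markers, with Hba-a1 and Hbb-b1 at 0, to 0.469 CPM in any library. Their part in the results below was not tested.

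Top2a, on chromosome 11, had the smallest p-values of the members in both genotypes. It stood at 97.7 and 96.4 CPM in mutant libraries A and B with doxorubicin, against 127 and 138 CPM in mutant controls, and at 56.5 and 62.6 CPM in WT libraries with doxorubicin, against 119 and 117 CPM in WT controls. Every treated library lay below every control library, and both WT treated libraries lay below both mutant treated libraries. The log2 fold change with doxorubicin was -0.45 ± 0.07 in mutant cells (adjusted p = 2.72e-05) and -0.99 ± 0.08 in WT cells (adjusted p = 3.09e-10), so the fitted treated level was 0.733 of the control level in mutant cells and 0.504 in WT cells. In these bulk samples fewer cells that make a transcript and less transcript per cell cannot be told apart. The order of the group means was mutant control, WT control, mutant with doxorubicin and WT with doxorubicin, and no neighbours in this order overlapped.

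Top2b, on chromosome 14, encodes the type II enzyme that non-dividing cells also make. It was at 166 and 164 CPM in mutant libraries with doxorubicin, against 184 and 187 CPM in mutant controls, and at 168 and 172 CPM in WT libraries with doxorubicin, against 175 and 200 CPM in WT controls. Treated libraries lay below control libraries in both genotypes. The log2 fold changes of -0.17 ± 0.07 in mutant cells (adjusted p = 0.0563) and -0.14 ± 0.07 in WT cells (adjusted p = 0.0943) did not pass, and the average of both responses did, at -0.15 ± 0.05 (adjusted p = 0.0107). Without WT control library B the average was -0.11 and no longer called (adjusted p = 0.0818). The WT value was -0.24 without WT control library A, which was then called (adjusted p = 0.0172), and -0.04 without WT control library B. The mutant value was called in 9 of 17 alternatives. These include the looser threshold of 0.10 and each omission of a WT library, which left the mutant libraries unchanged. Log2 fold changes ran from -0.22 to -0.15 over the 17 alternatives.

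The regions where these paralogous genes start are shown because Top2a was called in both genotypes and Top2b in neither: the 250 bases before the RefSeq start of each are printed 5′ to 3′ on the gene's own strand, for Top2a at chr11:99024190-99024439 (minus strand) and for Top2b at chr14:16364956-16365205 (plus strand) of GRCm38.p6, the build of the RefSeq table and not the mm9 build of the counts. Capitals mark 2 kinds of motif on either strand. The first is CCAAT, the box bound by NF-Y. The second is TTTGAA, counted also in its other common spelling, TTCGAA, the letters of the cell cycle genes homology region (CHR), and no match of one kind overlapped the other.
Top2a: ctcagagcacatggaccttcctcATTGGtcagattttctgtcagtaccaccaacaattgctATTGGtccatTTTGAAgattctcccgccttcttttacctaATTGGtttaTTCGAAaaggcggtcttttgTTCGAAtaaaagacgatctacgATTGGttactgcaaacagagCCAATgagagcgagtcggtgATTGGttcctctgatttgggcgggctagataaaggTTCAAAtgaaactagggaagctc
Top2b: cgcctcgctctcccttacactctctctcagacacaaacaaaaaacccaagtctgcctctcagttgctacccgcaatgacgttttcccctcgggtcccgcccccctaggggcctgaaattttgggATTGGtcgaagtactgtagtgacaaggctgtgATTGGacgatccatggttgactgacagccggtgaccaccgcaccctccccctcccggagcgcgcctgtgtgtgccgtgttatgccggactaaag
The Top2a window held 6 CCAAT and 4 CHR matches, and the Top2b window held 2 CCAAT and 0 CHR matches. Of 32851 RefSeq windows of the same length, 33.8% held a CCAAT match, 2.79% held 3 or more, 17.1% held a CHR match, and 6.02% held both kinds. Of the 20 G2/M genes described below 16 had a window, of which 14 held a CCAAT match, 5 a CHR match and 5 both. Windows were found for 6 of the 9 members. Top1 held neither motif, Tdp1 held 1 CHR match and no CCAAT, Top3b 1 CCAAT and Mre11a 2 CCAAT, and these matches describe letters and not bound sites.

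Because both type II genes were read in the same library, their count ratio does not depend on how libraries are scaled. The Top2a to Top2b count ratio was 0.589 and 0.586 in mutant libraries with doxorubicin, against 0.691 and 0.737 in mutant controls, and 0.337 and 0.363 in WT libraries with doxorubicin, against 0.680 and 0.586 in WT controls. In each genotype both treated libraries had a lower ratio than both controls, and mutant treated libraries and WT control library B were nearly level. Averaged over genotypes the treated ratio was 0.676 of the control ratio (log2 difference -0.57). In a two-sided exact permutation test within genotypes p was 0.0556, the smallest p that the 36 arrangements allow, and it was 0.0556 adjusted over the 2 ratios tested. The log2 difference was -0.28 in mutant libraries and -0.85 in WT libraries.

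**Figure D1:**
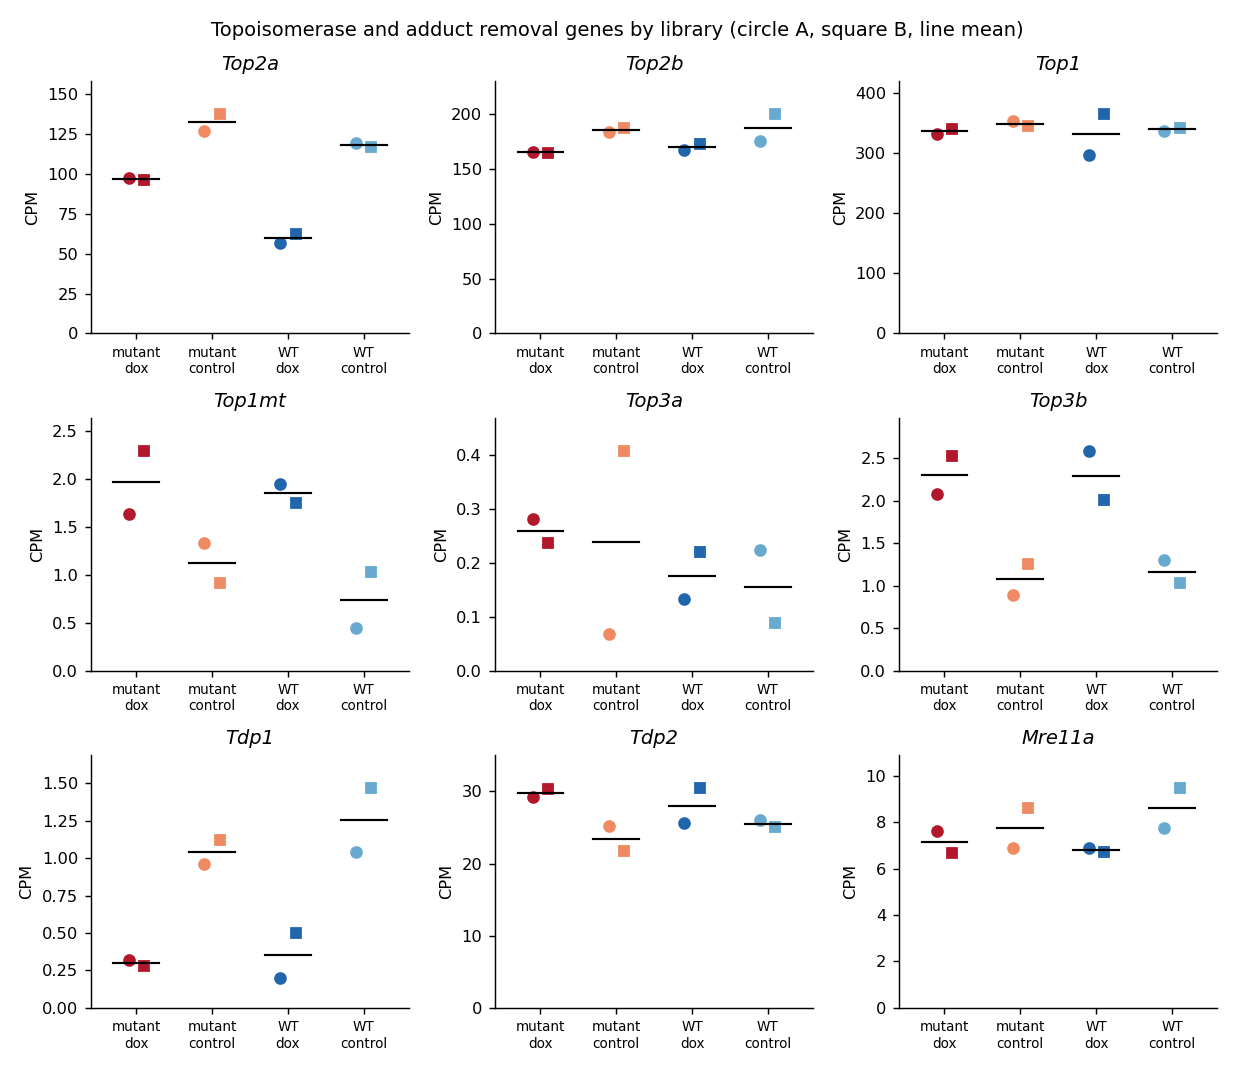
CPM of the 9 genes in each library (circle, library A; square, library B; line, mean of the 2), by group on the horizontal axis, with each vertical axis starting at 0. All Top2a treated points lie below its control points, Top1 lies between 296 and 364 CPM, and Top3a never exceeds 0.407 CPM.

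Top1, on chromosome 2, encodes the nuclear type I enzyme. It was at 331 and 340 CPM in mutant libraries with doxorubicin, against 352 and 345 CPM in mutant controls, and at 296 and 364 CPM in WT libraries with doxorubicin, against 336 and 342 CPM in WT controls. The WT treated libraries lay on both sides of all the others. The log2 fold change was -0.06 ± 0.08 in mutant cells (adjusted p = 0.577; 95% interval -0.22 to 0.11) and -0.04 ± 0.08 in WT cells (adjusted p = 0.717; 95% interval -0.20 to 0.13), so no change was detectable. The WT value turned on 1 library: without WT library A with doxorubicin it was 0.11 (adjusted p = 0.218), and without WT library B with doxorubicin it was -0.20 and called (adjusted p = 0.0234). The average response, -0.05 ± 0.06, was 0.02 and -0.13 in the same 2 cases, called in the second (adjusted p = 0.0151).

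Top1mt and Top3b, on chromosomes 15 and 16, were low and rose in both genotypes. Top1mt, which encodes the mitochondrial type I enzyme, had 41 and 58 counts in mutant libraries with doxorubicin, against 39 and 27 in mutant controls, and 59 and 56 counts in WT libraries with doxorubicin, against 12 and 35 in WT controls. In CPM these were 1.97 ± 0.461 and 1.13 ± 0.299 in treated and control mutant cells, and 1.85 ± 0.143 and 0.737 ± 0.411 in treated and control WT cells. Treated libraries lay above control libraries within each genotype, closely so in mutant cells, where 1.64 CPM stood above 1.34 CPM. The log2 fold change was 0.80 ± 0.32 in mutant cells (adjusted p = 0.0365) and 1.28 ± 0.33 in WT cells (adjusted p = 0.00218). The mutant call was lost without mutant control library B (0.56, adjusted p = 0.239), without mutant library B with doxorubicin (0.54, adjusted p = 0.276), with upper-quartile factors (0.75, adjusted p = 0.0514) and in DESeq2 (0.80, adjusted p = 0.159), and the WT value was 0.84 without WT control library A and 2.04 without WT control library B, called in both.

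Top3b, whose enzyme works with TDRD3, had 52 and 64 counts in mutant libraries with doxorubicin, against 26 and 37 in mutant controls, and 78 and 64 counts in WT libraries with doxorubicin, against 35 and 35 in WT controls. That is 2.31 ± 0.318 CPM and 1.07 ± 0.256 CPM in treated and control mutant cells, and 2.29 ± 0.410 CPM and 1.16 ± 0.193 CPM in treated and control WT cells. Every treated library lay above every control library. The log2 fold change was 1.10 ± 0.27 in mutant cells (adjusted p = 0.00156) and 0.99 ± 0.26 in WT cells (adjusted p = 0.00253), and both were called under each of their 16 alternatives. Top3a, which encodes the enzyme that resolves linked DNA with BLM and also lies on chromosome 11, had 7 and 6 counts in mutant libraries with doxorubicin, 2 and 12 in mutant controls, 4 and 7 in WT libraries with doxorubicin and 6 and 3 in WT controls. Treated and control libraries overlapped in both genotypes, and with no filter on low counts its average log2 fold change was 0.17 ± 0.55, so no change was detectable at this depth.

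Of the tyrosyl-DNA phosphodiesterase genes, Tdp1 fell in both genotypes and Tdp2 rose in mutant cells. Tdp1, on chromosome 12, had 8 and 7 counts in mutant libraries with doxorubicin, against 28 and 33 in mutant controls, and 6 and 16 counts in WT libraries with doxorubicin, against 28 and 50 in WT controls. In CPM these were 0.298 ± 0.0307 and 1.04 ± 0.112 in treated and control mutant cells, and 0.350 ± 0.214 and 1.25 ± 0.302 in treated and control WT cells. Every treated library lay below every control library. The log2 fold change was -1.79 ± 0.45 in mutant cells (adjusted p = 0.00199) and -1.83 ± 0.40 in WT cells (adjusted p = 0.000511), the largest of the 8 tested members in size in each genotype, and both were called under each of their 16 alternatives.

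Tdp2, on chromosome 13, was at 29.2 and 30.3 CPM in mutant libraries with doxorubicin, against 25.1 and 21.7 CPM in mutant controls, and at 25.6 and 30.4 CPM in WT libraries with doxorubicin, against 26.0 and 25.1 CPM in WT controls. Treated and control libraries were apart in mutant cells and overlapped in WT cells. It rose in mutant cells, by a log2 fold change of 0.34 ± 0.10 (adjusted p = 0.00646), and the WT value of 0.14 ± 0.10 did not pass (adjusted p = 0.253; 95% interval -0.07 to 0.34). The difference between these responses, 0.21 ± 0.14, did not pass either (adjusted p = 0.979). The average of both responses, 0.24 ± 0.07, was called in edgeR (adjusted p = 0.00513) and ran from 0.17 to 0.30 over its 16 alternatives. The mutant call was lost without mutant control library B (0.25, adjusted p = 0.116), and the WT value was 0.26 without WT library A with doxorubicin and 0.00384 without WT library B with doxorubicin. The Tdp1 to Tdp2 count ratio was 0.0110 and 0.00914 in mutant libraries with doxorubicin, against 0.0382 and 0.0515 in mutant controls, and 0.00775 and 0.0164 in WT libraries with doxorubicin, against 0.0401 and 0.0584 in WT controls. The treated ratio was 0.230 of the control ratio on average, below every control in all 4 treated libraries, and the exact permutation p was again the smallest allowed, 0.0556.

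**Figure D2:**
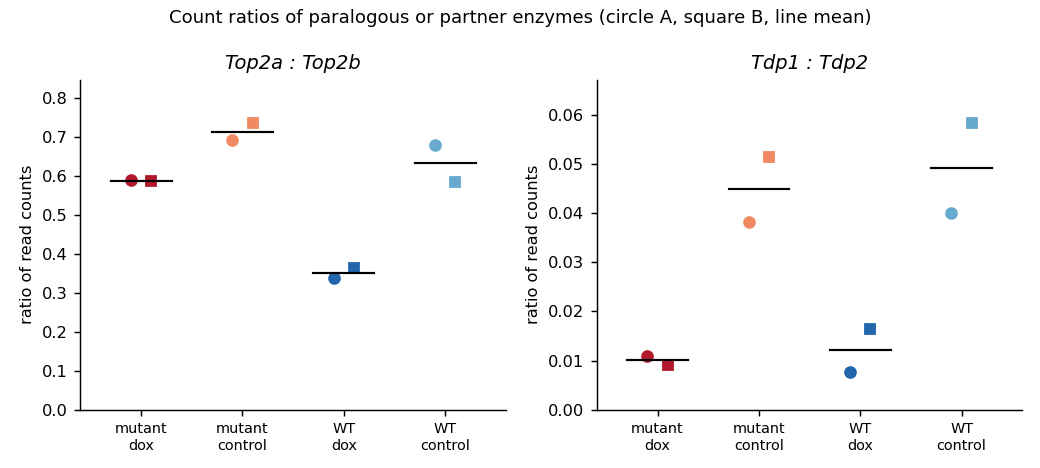
Ratio of read counts within each library for Top2a to Top2b (left) and Tdp1 to Tdp2 (right), by group (circle, library A; square, library B; line, mean), with vertical axes from 0. The treated Top2a to Top2b ratios are 0.589 and 0.586 in mutant and 0.337 and 0.363 in WT cells, and all treated Tdp1 to Tdp2 ratios lie at or below 0.0164.

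Mre11a, on chromosome 9, encodes the nuclease of the complex with RAD50 and NBS1 that trims protein-blocked DNA ends. It was at 7.64 and 6.68 CPM in mutant libraries with doxorubicin, against 6.90 and 8.61 CPM in mutant controls, and at 6.89 and 6.73 CPM in WT libraries with doxorubicin, against 7.77 and 9.48 CPM in WT controls. The groups overlapped in mutant cells and were apart in WT cells. The log2 fold change was -0.11 ± 0.15 in mutant cells (adjusted p = 0.537; 95% interval -0.42 to 0.19) and -0.35 ± 0.14 in WT cells, which passed (adjusted p = 0.0433). The WT call was lost without WT control library B (-0.19, adjusted p = 0.391), without WT library A (-0.36, 0.0889) or B with doxorubicin (-0.33, 0.119), in DESeq2 (-0.34, 0.163) and with a filter of 5 CPM in 2 libraries (-0.32, 0.0689). Ankrd49 on the opposite strand shares 154 exon bases with Mre11a in a GRCm38 annotation, and whether counting used strand is not given in the sources used here. Ankrd49 fell in mutant cells, to 23.1 and 23.3 CPM against 38.2 and 36.2 CPM in controls, and in WT cells, to 21.2 and 24.4 CPM against 37.0 and 38.3 CPM in controls, and its part in the Mre11a values was not tested. Top2b shares 1793 exon bases with Rarb on the opposite strand, which had at most 59 counts in a library and no called response (average log2 fold change 0.20 ± 0.21), Top3b shares 108 with Vpreb1, which had at most 9 counts, and Top1mt shares 95 with the antisense gene Gm15945. Top2a shares 122 of its 9013 exon bases with the snoRNA gene Gm23451 on the same strand, so strand would not separate their reads, and the part of this in the Top2a values was not tested.

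Counted together, 3 of the 8 tested members rose and 2 fell in mutant cells, where 28.3% and 25.9% of all genes tested did, and 2 rose and 3 fell in WT cells, where 29.3% and 28.1% did. With both responses averaged 3 rose (Top1mt, Top3b and Tdp2) and 3 fell (Top2a, Top2b and Tdp1), against 33.7% and 32.6% of all genes. The share of members called was thus near that of all genes. The median log2 fold change of the 8 was -0.09 in mutant cells and -0.09 in WT cells, and over all genes it was 0.01 in each.

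**Figure D3:**
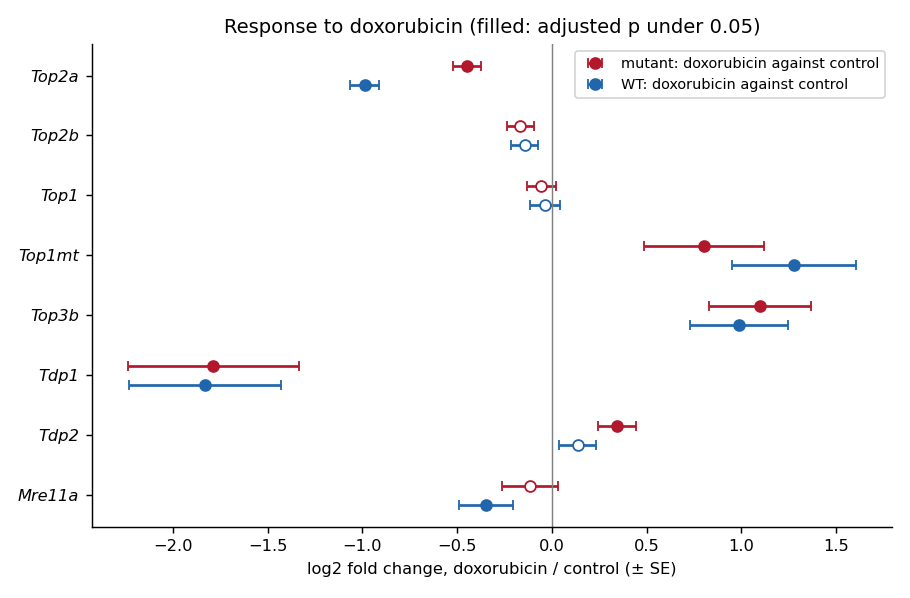
Log2 fold change of doxorubicin over control (± SE, horizontal axis) for the 8 tested members, with mutant cells in red above WT cells in blue and filled points called at an adjusted p under 0.05. The responses run from -1.83 for Tdp1 to 1.28 for Top1mt, both in WT cells, and the largest gap between genotypes relative to its error is that of Top2a.

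The genotypes were compared next. In controls none of the 8 members was called between mutant and WT cells, where 5.92% of all genes were; edgeR gave 1 member, Top2a, an unadjusted p under 0.05 (0.0381, log2 0.16 ± 0.07), and DESeq2 and limma-voom called none either. With doxorubicin, Top2a was the only member called and was higher in mutant cells, at 97.0 ± 0.892 CPM against 59.6 ± 4.33 CPM in WT cells, a log2 difference of 0.70 ± 0.08 (adjusted p = 1.61e-06). Of all genes 3.92% were called higher in mutant cells there and 7.74% in either direction. The other 7 members had log2 differences from -0.24 ± 0.54 (Tdp1) to 0.09 ± 0.29 (Top1mt). The Top2a call held under each of its 17 alternatives, with log2 differences from 0.63 to 0.78.

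Whether the response itself differed was tested by the mutant minus the WT log2 fold change. For Top2a this difference was 0.54 ± 0.11 (95% interval 0.32 to 0.76), which just missed the threshold in edgeR (adjusted p = 0.0505, unadjusted p = 4.54e-05) and ranked 11 by p among all genes, of which 9, or 0.0734%, were called. DESeq2 called it (adjusted p = 0.00627), as did edgeR on all genes unfiltered (0.00425) and on the libraries other than WT library B with doxorubicin (0.61, 0.00818), and it was 0.46 to 0.60 and not called without any other library (adjusted p between 0.106 and 0.416). None of the other 7 members was called, with differences from -0.47 ± 0.46 (Top1mt) to 0.23 ± 0.21 (Mre11a) and the smallest unadjusted p at 0.156; DESeq2 called Top2a alone, with no adjusted p for Tdp1, and limma-voom called no member. The genotypes also differed in sex-linked RNA: Xist was at 522 ± 74.5 and 233 ± 29.4 CPM in treated and control mutant cells and at 0.304 ± 0.102 and 0.277 ± 0.0236 CPM in treated and control WT cells, and the Y-linked Ddx3y was at 59.6 ± 1.31 and 74.0 ± 0.00800 CPM in treated and control mutant cells and 460 ± 17.5 and 546 ± 48.4 CPM in treated and control WT cells. The Y-linked Eif2s3y, Kdm5d and Uty were lower in mutant than in WT means as well, by group means of 4.45 to 13.0 CPM in mutant cells and 32.1 to 87.8 CPM in WT cells. Genotype and this difference between the cultures cannot be told apart.

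Top2a is a gene of dividing cells, and its values were set beside 20 G2/M genes, a list chosen with earlier results of these data known. Of the 20, 18 fell and 1 rose in mutant cells and 18 fell and 1 rose in WT cells, with medians of -0.69 and -1.12 in mutant and WT cells. Of all genes tested, 25.9% fell and 28.3% rose in mutant cells, and 28.1% fell and 29.3% rose in WT cells. Top2a, at -0.45 and -0.99, thus fell somewhat less than the median of the list in both. The gene that rose was the kinetochore motor gene Cenpe, by 0.93 in mutant and 0.86 in WT cells, and Cdc20 was not called. Named by the size of their average response, Cenpf (-1.78 ± 0.08), Kif11 (-1.55 ± 0.09), Plk1 (-1.51 ± 0.17) and the proliferation marker Mki67 (-1.46 ± 0.05) fell most. The summed level of the 20 was 772 and 804 CPM in mutant cells with doxorubicin, against 1277 and 1296 CPM in mutant controls, and 597 and 606 CPM in WT cells with doxorubicin, against 1240 and 1284 CPM in WT controls. The mutant minus WT difference in response was above 0 for 20 of 20, with a median of 0.42, where the median over all genes was 0.00916. It passed for 2, where 0.0734% of all genes did: Mki67 (0.67 ± 0.11, adjusted p = 0.0187) and Hmmr (0.76 ± 0.12, adjusted p = 0.0187). Without mutant control library A, mutant control library B, WT control library B or mutant library B with doxorubicin neither was called, and without WT control library A Hmmr was not (adjusted p between 0.0700 and 0.157). In treated cells 11 of the 20 were called higher in mutant than in WT cells, where 3.92% of all genes were. The median was 0.36, and this comparison shares the treated libraries with the difference in response. The part of this difference between the cultures in the Top2a values was not tested.

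The genes nearest to Top2a in pattern over the 8 libraries, by the root mean square difference of log2 CPM centred on each gene's mean, were Sgol2, which encodes shugoshin 2, a protector of centromere cohesion (0.0775), Ptar1 (0.0896) and Hmmr (0.0918). Sgol2 had log2 fold changes of -0.55 in mutant and -1.05 in WT cells. Nearest to Top2b were Btaf1 (0.0223), Slc35b1 (0.0282) and Fam129b (0.0374), and nearest to Top1 were the proteasome gene Psma3 (0.0379), Nap1l4 (0.0383) and Gsr, which encodes glutathione reductase (0.0401). The log2 fold changes of these genes ran from -0.22 to 0.0062. Top2b and Top1 changed little themselves, so a small distance to them can mark any gene that changed little.

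**Figure D4:**
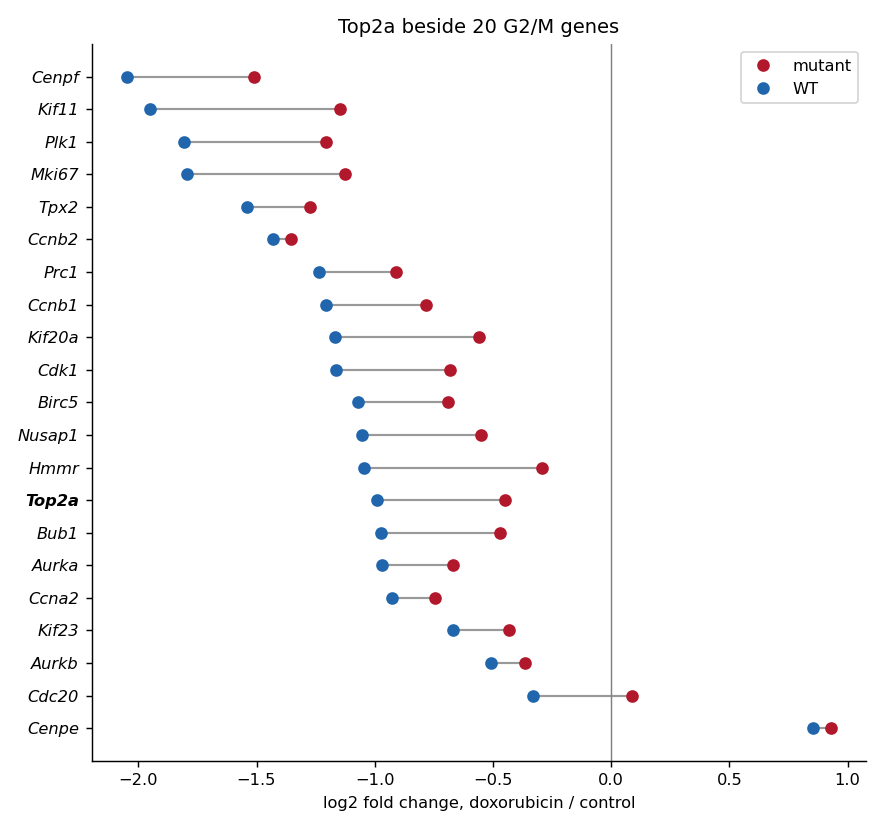
Log2 fold change of doxorubicin over control (horizontal axis) in mutant (red) and WT (blue) cells for Top2a and 20 G2/M genes, joined by a line for each gene and sorted by the WT value. The mutant point lies to the right of the WT point for every gene shown, and Cenpe stands apart above 0 in both.

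Most of the listed genes whose products work with the topoisomerases fell, in lists chosen with earlier results of these data known. Of 10 topoisomerase partners, none rose, 7 fell in mutant cells and 9 fell in WT cells, with median log2 fold changes of -0.45 and -0.58 in mutant and WT cells; 25.9% of all genes fell in mutant cells and 28.1% in WT cells. Rmi2, a subunit of the complex of TOP3A with BLM, had the largest fitted fall on average (-2.15 ± 0.49), from few reads: 4 and 3 counts in treated mutant libraries, against 16 and 21 in mutant controls, and 1 and 2 counts in treated WT libraries, against 7 and 7 in WT controls. Next were Topors, a ubiquitin and SUMO ligase that binds TOP1 (-1.23 ± 0.06), Baz1b (-0.62 ± 0.07) and Topbp1, an activator of the ATR kinase (-0.54 ± 0.06). Topors was at 19.2 ± 0.671 CPM in treated mutant cells, against 44.0 ± 0.418 CPM in mutant controls, and at 20.4 ± 0.728 CPM in treated WT cells, against 49.2 ± 2.66 CPM in WT controls. Tdrd3, the partner of Top3b, fell by a log2 fold change of -0.35 ± 0.10 in mutant and -0.58 ± 0.10 in WT cells while Top3b rose. Of the 8 condensin genes, whose products fold mitotic chromosomes together with TOP2A, 7 fell in mutant and 7 in WT cells and none rose. Ncapd2 (-1.21 ± 0.24), Ncapg2 (-1.19 ± 0.05), Ncapg (-0.79 ± 0.07) and Smc4 (-0.72 ± 0.05) had the largest average falls. For comparison with both lists, 25.9% of all genes fell and 28.3% rose in mutant cells. In WT cells 28.1% fell and 29.3% rose.

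The subunits of the MRE11 complex split. Rad50, the ATPase subunit, rose to 21.0 ± 0.578 CPM in treated mutant cells, against 10.8 ± 0.389 CPM in mutant controls, and to 20.5 ± 0.0667 CPM in treated WT cells, against 11.1 ± 0.197 CPM in WT controls (log2 fold changes 0.95 ± 0.10 and 0.88 ± 0.10 in mutant and WT cells). Nbn, which encodes the subunit NBS1, fell to 4.27 ± 0.273 CPM in treated mutant cells, against 7.55 ± 0.0407 CPM in mutant controls, and to 3.64 ± 1.17 CPM in treated WT cells, against 8.12 ± 0.135 CPM in WT controls (-0.82 ± 0.17 and -1.16 ± 0.17). The end resection genes Exo1 (average -1.32 ± 0.09), Dna2 (-1.07 ± 0.13) and Brca1 (-0.87 ± 0.12) fell in both genotypes, and Rbbp8, which encodes the MRE11 cofactor CtIP, was not called in either (-0.05 ± 0.07 on average).

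Other routes of adduct removal and the repair steps that follow were mixed. Of 13 other adduct removal and SUMO pathway genes 10 were tested, of which 3 rose and none fell in mutant cells and 3 rose and 2 fell in WT cells, so the share that rose was near the 28.3% and 29.3% of all genes in mutant and WT cells. Of all genes, 25.9% fell in mutant cells and 28.1% in WT cells. On average Eme1 (-1.05 ± 0.29) and Slx1b (-0.95 ± 0.29), of structure-specific nucleases, fell, both called in WT cells and not in mutant cells. Their mutant minus WT differences, 0.37 ± 0.59 and 0.17 ± 0.58, were not called, and each had at most 38 counts in a library. Ercc1, of the nuclease ERCC1-XPF, rose in both genotypes (0.73 ± 0.19). Mus81, the catalytic partner of Eme1, had 6 to 20 counts in a library and was called on average (0.85 ± 0.36) but in neither genotype. Sprtn, a protease gene for DNA-protein crosslinks, had at most 2 counts in any library and was not tested. Of 8 end joining genes, which act on the ends that TDP2 clears, none was called in mutant cells and 1, Xrcc4, fell in WT cells (-0.73 ± 0.18, adjusted p = 0.00187). The share called was below that of all genes: 28.3% rose and 25.9% fell in mutant cells, and 29.3% and 28.1% in WT cells. The mutant minus WT difference of Xrcc4, 0.37 ± 0.26, was not called. Prkdc, with at most 58 counts in a library, was called on average (-0.45 ± 0.20) but in neither genotype. Of 6 single-strand repair genes, which follow TDP1, 3 fell and none rose in mutant cells and 3 fell and 1 rose in WT cells. Against them stand 25.9% and 28.1% of all genes that fell, and 28.3% and 29.3% that rose, in mutant and WT cells. Parp1 (-0.80 ± 0.06), Parp2 (-0.79 ± 0.10) and Lig3 (-0.44 ± 0.11) fell on average, while the scaffold gene Xrcc1, at under 1 CPM in each group mean, rose (1.03 ± 0.28).

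**Figure D5:**
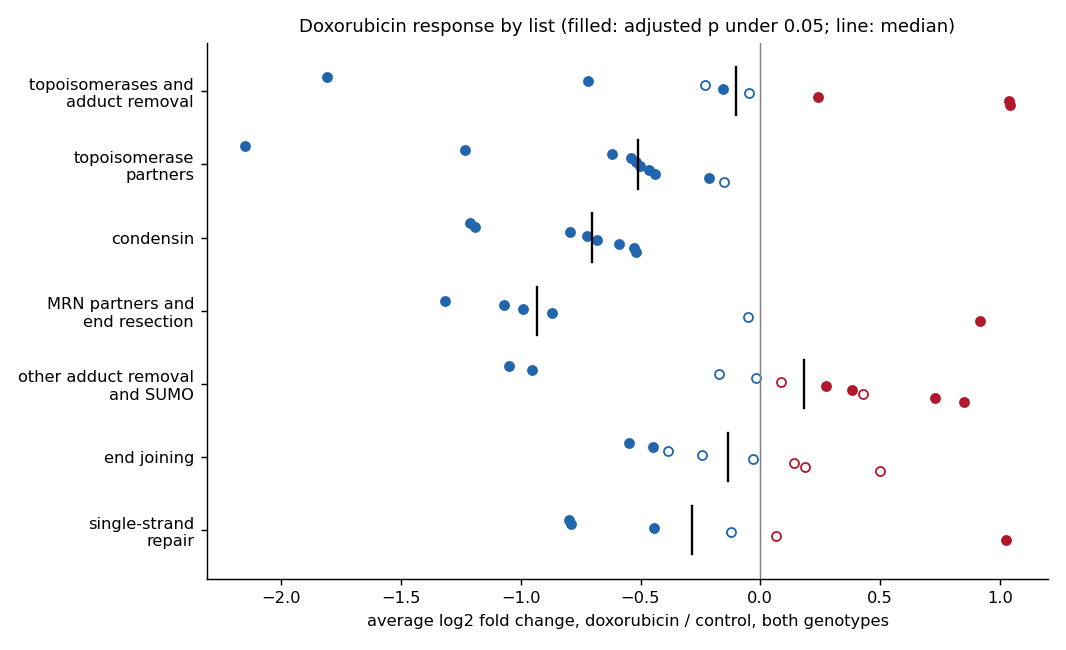
Average log2 fold change of doxorubicin over control in both genotypes (horizontal axis) for each tested gene of 7 lists, with filled points called at an adjusted p under 0.05, red above 0 and blue below, and a black line at each list's median. All tested condensin genes and topoisomerase partners lie below 0, and the members run from -1.81 (Tdp1) to 1.04 (Top1mt and Top3b).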

How the data were processed

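RNA of 8 fibroblast libraries was analysed from the authors' deposited table of counts, which holds 1 row per gene name and is not normalized. Reads were processed with Bowtie2 and HTSeq on mm9, per the submitters' processing notes. Annotation, strand setting and handling of reads with several matches are not given in the sources used here, and the labels' protocols give a TruSeq RNA Access kit as well as a transcript-end method. Columns were matched to samples by the labels.

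Counts were fitted in R 4.3.3 with edgeR 4.0.16 (filterByExpr on 4 groups with a minimum count of 10 and a minimum total of 15, TMM, quasi-likelihood model with 1 coefficient per group over all 8 libraries), leaving 12255 of 30419 names. Fold changes are treated over control or mutant over WT, tests are two-sided, and p-values are Benjamini-Hochberg adjusted over all genes tested. SE is the fold change divided by the square root of F. The biological coefficient of variation was 0.0636. Chi-square per degree of freedom between libraries A and B was 4.36 to 13.5 per group, highest in WT with doxorubicin, so no pair agreed within sampling noise. A count of 0 allows up to 3 counts, or 0.0880 to 0.120 CPM, for counting error only. The pipeline was tested on simulated data. Alternatives were RLE and upper-quartile factors, DESeq2 1.42.0, limma-voom (limma 3.58.1), other filters, an adjusted p of 0.10, a replicate block, fits on the compared groups alone, and omission of each library in turn. The members and lists were chosen with earlier results of these data known. Named were all members, up to 4 called genes per pathway list by size of the average response (2 if none was called), control and sex-linked genes, and the 3 genes nearest in pattern to Top2a, Top2b and Top1 with at least 4 CPM. Brca1, Rbbp8, Tdrd3, Cenpe, Cdc20, Hmmr, Pdgfra, Map2, Nes, Cd14, Tek and the other endothelial markers and the genes that overlap members were named after their values were seen. Exon overlaps used a GRCm38 annotation, and promoters RefSeq's GRCm38.p6 table.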

Additional observations from a re-analysis of the deposited data

Results flagged for a closer look

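The response to doxorubicin differed between the genotypes for 2 of the 20 G2/M genes set beside Top2a, by the test of the difference itself in edgeR. Of all genes tested, 0.0734% passed this test. The mutant minus WT log2 fold change was 0.756 ± 0.123 for Hmmr (adjusted p = 0.0187) and 0.667 ± 0.108 for Mki67 (adjusted p = 0.0187). Hmmr averaged 38.1 ± 3.47 CPM in treated mutant cells and 46.7 ± 0.829 CPM in mutant controls, and 22.8 ± 0.635 CPM in treated WT cells and 47.1 ± 2.49 CPM in WT controls (SD, n = 2 each). Both were called in DESeq2 and limma-voom as well, and without 1 library the differences ran from 0.654 to 0.840 for Hmmr and from 0.589 to 0.729 for Mki67. The Hmmr call was lost without WT control library A (adjusted p = 0.157) or B (0.0783), mutant control library A (0.145) or B (0.0958), or mutant library B with doxorubicin (0.0934). The Mki67 call was lost without WT control library B (adjusted p = 0.0972), mutant control library A (0.145) or B (0.122), or mutant library B with doxorubicin (0.0700). No member passed this test in edgeR with TMM factors and the filter on low counts, where Top2a had an adjusted p of 0.0505.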

How the results depend on the processing

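The count of genes whose response differed between genotypes, 9, was 15 in DESeq2, 4 in limma-voom, 48 with no filter, 5 with a filter of 5 CPM in 2 libraries, 18 at an adjusted p under 0.10, and 0 to 51 without 1 library, where the lone library left in a group is assumed to vary like the others. It was 51 without WT library B with doxorubicin and, in edgeR, 0 without WT control library B (686 genes at an unadjusted p under 0.05) or mutant control library A (579). With the library letter as a replicate block it was 14, and Top2a was called there (0.54, adjusted p = 0.0456). Deviations of same-letter libraries correlated between groups by -0.0249 to 0.0314 over all genes tested. Such correlations cannot show whether same-letter libraries shared an embryo, culture or batch that moved few genes. Without 1 library the genotype counts were 388 to 848 in controls (726 with all) and 530 to 1214 with doxorubicin (949 with all). The counts of genes called for doxorubicin stayed within 1.5 times under every alternative run. The Top2a to Top2b difference of -0.57 was -0.28 in mutant and -0.85 in WT libraries alone, and an exact permutation test within the replicate block gave p = 0.125 for both ratios, the smallest it allows.

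Top2b in mutant against WT controls turned to 0.00166 with upper-quartile factors. Top1 was called at -0.20 and -0.13 without WT library B with doxorubicin. Directions of the other values named here, none called with all libraries, turned without 1 library, with these ranges. In the response of WT cells Top1 ran from -0.20 to 0.11, in that of mutant cells Mre11a from -0.27 to 0.0582, and in the average Top1 from -0.13 to 0.0210. In the difference of responses Tdp1 ran from -0.46 to 0.85, Top1 from -0.17 to 0.13, Top2b from -0.13 to 0.0734 and Top3b from -0.12 to 0.38. Between control genotypes Tdp1 ran from -0.50 to 0.00124, Top2b from -0.12 to 0.0822 and Top3b from -0.37 to 0.13. Between treated genotypes Mre11a ran from -0.0269 to 0.17, Tdp1 from -0.74 to 0.58, Tdp2 from -0.0351 to 0.22, Top1 from -0.12 to 0.18, Top1mt from -0.17 to 0.31 and Top3b from -0.16 to 0.20. The cause was not tested. Depth limits Top3a, Tdp1, Top1mt and Top3b, which had at most 78 counts in a library. Among the other genes named it limits Sprtn, Pecam1, Vpreb1, Cdh5, Mus81 and Rmi2, which had at most 21. It also limits Eme1, Xrcc1, Slx1b, Ncapd2, Kdr, Prkdc, Rarb and Ercc1, which had at most 61 counts in a library.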
